A study of Homo sapiens with 4 samples.

Results

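BRD8 peaks that lay inside genes in HCT116 cells and had no SW480 peak nearby numbered 5210 of the 22303 regions in the HCT116 list. A region was taken when its summit lay between the ends of a gene in the RefSeq gene table of GRCh38, more than 1 kb from every gene end, and no SW480 region lay within 5 kb. Chromosomes 1 to 22 and X were used, and chromosome 7 from 76 to 96 Mb and the 5 Mb of chromosome 8 that end at 130 Mb were left out. Members were thus chosen by peak calls in both libraries, and no level entered beyond the calling threshold. These HCT116-alone in-gene peaks made up 62.1% of all 8386 HCT116 peaks inside genes (95% Wilson interval 61.1 to 63.2). The other 3176, which had an SW480 region within 5 kb, are called shared in-gene peaks. The SW480 list held 12874 regions, of which 2471 were inside genes and more than 5 kb from any HCT116 region.

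The study mapped BRD8 by chromatin immunoprecipitation sequencing (ChIP-seq) in HCT116 cells and in SW480 cells, both established colorectal cancer lines of human origin, with 1 ChIP library and 1 input library per line. Both lines were fixed for 10 min in 1% formaldehyde, the chromatin was digested with micrococcal nuclease, and 2 µg of a polyclonal BRD8 antibody was used. Libraries were built from 1 ng of DNA and read as pairs of 150 bp. HCT116 cells grew in McCoy's 5A medium and SW480 cells in Leibovitz's L-15 medium, each with 10% serum, so line and medium cannot be told apart. Because each line has a single ChIP library, differences between lines cannot be checked against replicates, no test was made, and a region missing from a list is not shown to be free of BRD8. Peak lists hold no expression values, so neither line was checked against marker genes.

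BRD8 is a bromodomain protein of the TIP60/NuA4 complex, which acetylates histones and takes part in placing histone variants at promoters. The complex is best known at the starts of active genes and at sites of DNA damage. The interior of a gene can hold further promoters and enhancers, and enhancers often act in a cell-type-dependent way.

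Several of the strongest members lay at a listed transcription start inside a longer gene. The sequences below are RefSeq promoters (GRCh38.p14) of the 5 members of highest fold whose summit lay within 250 bp of a listed start, each running from 250 bases before to 50 bases after that start. They are shown because these strong peaks sit at starts that a rule based on gene ends passes over. For SLC19A1, ZNF749, RAD52 and AIRIM the summit lay downstream of the start and outside the printed window. For MGA it lay upstream of the start and inside the window. The SLC19A1 peak ends at 45541920, within its printed window, so part of that sequence lies outside the peak. Capitals mark the E-box CACGTG and the ZNF143 motif, searched on both strands.
SLC19A1 promoter (chr21:45541797-45542096, minus strand): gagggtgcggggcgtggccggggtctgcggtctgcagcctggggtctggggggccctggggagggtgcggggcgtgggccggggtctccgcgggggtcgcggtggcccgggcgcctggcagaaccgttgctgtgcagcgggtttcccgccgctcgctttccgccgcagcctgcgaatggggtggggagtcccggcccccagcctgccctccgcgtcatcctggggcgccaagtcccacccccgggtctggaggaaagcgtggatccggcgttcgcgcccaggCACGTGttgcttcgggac
ZNF749 promoter (chr19:57435075-57435374, plus strand): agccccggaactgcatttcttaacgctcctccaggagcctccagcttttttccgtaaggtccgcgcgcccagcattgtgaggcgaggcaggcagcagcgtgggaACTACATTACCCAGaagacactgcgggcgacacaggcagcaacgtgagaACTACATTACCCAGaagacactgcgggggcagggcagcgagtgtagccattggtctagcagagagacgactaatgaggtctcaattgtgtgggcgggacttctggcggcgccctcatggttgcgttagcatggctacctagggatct
RAD52 promoter (chr12:949645-949944, minus strand): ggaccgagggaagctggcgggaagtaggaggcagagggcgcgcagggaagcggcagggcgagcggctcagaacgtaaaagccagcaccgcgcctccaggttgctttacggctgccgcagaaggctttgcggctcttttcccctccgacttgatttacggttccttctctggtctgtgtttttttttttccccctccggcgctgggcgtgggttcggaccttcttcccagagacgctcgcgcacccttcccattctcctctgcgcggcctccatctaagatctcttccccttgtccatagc
AIRIM promoter (chr1:37690480-37690779, minus strand): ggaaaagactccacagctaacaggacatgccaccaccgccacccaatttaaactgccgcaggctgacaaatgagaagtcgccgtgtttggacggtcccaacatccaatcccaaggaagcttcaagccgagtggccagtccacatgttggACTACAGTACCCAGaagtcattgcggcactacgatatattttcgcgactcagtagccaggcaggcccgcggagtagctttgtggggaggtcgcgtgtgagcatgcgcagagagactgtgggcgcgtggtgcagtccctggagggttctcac
MGA promoter (chr15:41660497-41660796, plus strand): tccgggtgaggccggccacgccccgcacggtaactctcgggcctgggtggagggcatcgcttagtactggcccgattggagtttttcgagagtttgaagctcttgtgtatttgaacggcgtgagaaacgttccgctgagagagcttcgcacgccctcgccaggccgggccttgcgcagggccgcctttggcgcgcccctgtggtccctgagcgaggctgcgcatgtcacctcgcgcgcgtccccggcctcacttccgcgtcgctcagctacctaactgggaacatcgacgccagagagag

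SLC19A1, the reduced folate carrier, had its summit 169 bp from the start printed above and a fold enrichment of 17.0. Fold enrichment is the authors' own value and compares ChIP signal with local background at the summit. ZNF749, a zinc finger protein gene, had its summit 132 bp from its start with a fold of 12.7, and the ZNF143 motif occurred at 2 places in its promoter. AIRIM, a ribosome maturation factor gene, had its summit 115 bp from its start with a fold of 10.4, and its promoter held 1 such motif. RAD52, which anneals DNA strands in homologous recombination, had its summit 229 bp from its start and also had a fold of 10.4. MGA, a transcription factor gene that encodes a partner of MAX, had its summit 103 bp from its start and a fold of 7.79. None of the 12 motifs searched was found in the RAD52 and MGA windows. The ZNF143 motif was found in 0.601% of all 34961 listed promoters, and the E-box in 7.27%. The ZNF143 motif was added to the search after these sequences were seen, so its matches here carry no weight against that share.

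The member of highest fold lay deep inside CACNA1A, which encodes the pore-forming subunit of a neuronal calcium channel. This region, at chr19:13334633-13336460, had a fold of 29.3, a −log10 q of 221 and a summit pileup of 202 fragments over a local background of 5.93. Its summit was 128939 bp from the nearest end of CACNA1A and 171098 bp from the nearest listed start, and the nearest SW480 region was 181436 bp away. The other 4 members in CACNA1A had folds from 3.16 to 5.48, so this peak stood apart in fold within its own gene. In position it had close neighbours. Its summit lay 171.1 kb from the 5′ end, with other members at 172.2 and 169.6 kb, and the latter had the fold of 5.48. CCNP, a cyclin gene on chromosome 19, held the third member by fold, at 14.7, with its summit 2015 bp from the gene end. After ZNF749, FBRSL1 came next at 10.6, as did the long non-coding RNA gene LOC105370082. ABCB9, a lysosomal peptide transporter, had a fold of 10.3. NAPRT, an enzyme of NAD synthesis from nicotinic acid, had 10.2, and its region of 4444 bp was among the 5 widest.

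Ranking by −log10 q in place of fold added BANP and EIF3H to the leading 10 members. BANP, a DNA-binding protein of CpG-rich promoters, had a −log10 q of 40.6 and a fold of 7.14. The BANP summit lay 619 bp from a listed start. EIF3H, a translation initiation factor subunit, had a −log10 q of 40.4 and a fold of 8.97. The widest members lay in CDC42EP4, an effector of the Cdc42 GTPase, with 4719 bp, and in SAMD13, with 4554 bp. SFR1, a recombination cofactor, held one of 4433 bp, and ALCAM, a cell adhesion molecule, one of 4305 bp. The summits in CDC42EP4, SAMD13, SFR1 and ALCAM lay 1153, 1591, 233 and 1315 bp from a listed start. That in NAPRT lay 1157 bp from a gene end. The regions in CDC42EP4, SFR1, ALCAM and NAPRT reach over that start or gene end. In SAMD13 the distance is below the width of the region, so the region can reach over the start. Width did not go with height in CDC42EP4, where the fold was 3.88. Among long non-coding RNA genes, the highest folds after LOC105370082 were 9.85 in LOC107987095, 8.08 in CAND1.11, 7.59 in ZNF24TR and 6.39 in LOC124903656.

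Most members were weaker than these. Their fold ran from 1.80 to 29.3 with a median of 3.37, against a median of 3.49 for shared in-gene peaks and 4.30 for HCT116 peaks at gene ends. The median −log10 q was 3.94 for members, 4.46 for shared in-gene peaks and 8.58 for gene-end peaks. A −log10 q of at least 10 was reached by 9.16% of members (8.40 to 9.97) and by 17.9% of shared in-gene peaks (16.6 to 19.3). Members had a median width of 440 bp, against 529 bp for shared in-gene peaks and 870 bp for gene-end peaks. The median summit pileup, solved from the deposited fold and p-value, was 20 fragments for members, 22 for shared in-gene peaks and 29 for gene-end peaks. These values come from the list that chose the members and are given as a description.

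**Figure D1:**
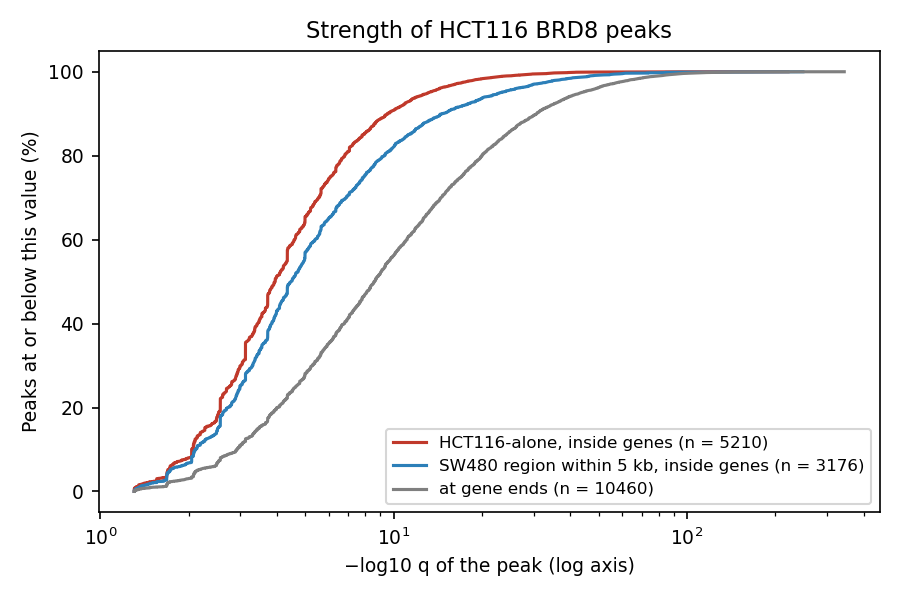
Cumulative share of HCT116 peaks (percent) against −log10 q on a log axis, for HCT116-alone in-gene peaks (red), shared in-gene peaks (blue) and peaks at gene ends (grey), each line summing all peaks of its class. The red curve lies to the left, with medians of 3.94, 4.46 and 8.58 in that order.

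The local background sat at its lowest level, 3.75 fragments, for 18.1% of members (17.0 to 19.1), for 11.4% of shared in-gene peaks and for 6.35% of gene-end peaks. At that level the fold moves in steps of 1 fragment, so a pileup of 15 fragments gives 3.37 and one of 16 gives 3.58, values that recur below. At the limits of the selection, values differed little. The 130 members with an SW480 region 5 to 6 kb away had a median fold of 3.18, and the 131 in-gene peaks with one 4 to 5 kb away, which were not members, had 3.30. The 313 members whose summit was 1 to 1.2 kb from a gene end had a median fold of 3.41, and the 526 HCT116-alone peaks at 0.8 to 1 kb, which were not members, had 3.43. The median member was 73432.5 bp from the nearest SW480 region, and 6.66% had none within 1 Mb.

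Listed RefSeq starts inside genes accounted for a minority of members, more often among the strong ones. Of 4957 members on chromosomes other than 8, which the promoter table used here does not cover, 490 or 9.89% (9.08 to 10.7) had the summit within 1 kb of a listed start. Among shared in-gene peaks the share was 17.0% (15.7 to 18.4), and an SW480 peak at the same start would by itself place a peak in that class. Ordered by −log10 q and divided into 10 equal groups, members were at a start in 4.44% of the weakest group and 21.8% of the strongest, against 8.74% and 52.8% for shared in-gene peaks. The groups were cut within each class and are not of like strength. The strongest began at a −log10 q of 9.51 for members and 14.4 for shared in-gene peaks. Of the 100 strongest by −log10 q, 28 members and 63 shared in-gene peaks were at a start. Members at a start had a median fold of 3.59, and the others had 3.37. The starts were those of protein-coding genes for 464 members and of long non-coding RNA genes for 26. In 62% of cases (57.7 to 66.2) the summit lay downstream of the start, and the median offset was 130.5 bp downstream.

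**Figure D2:**
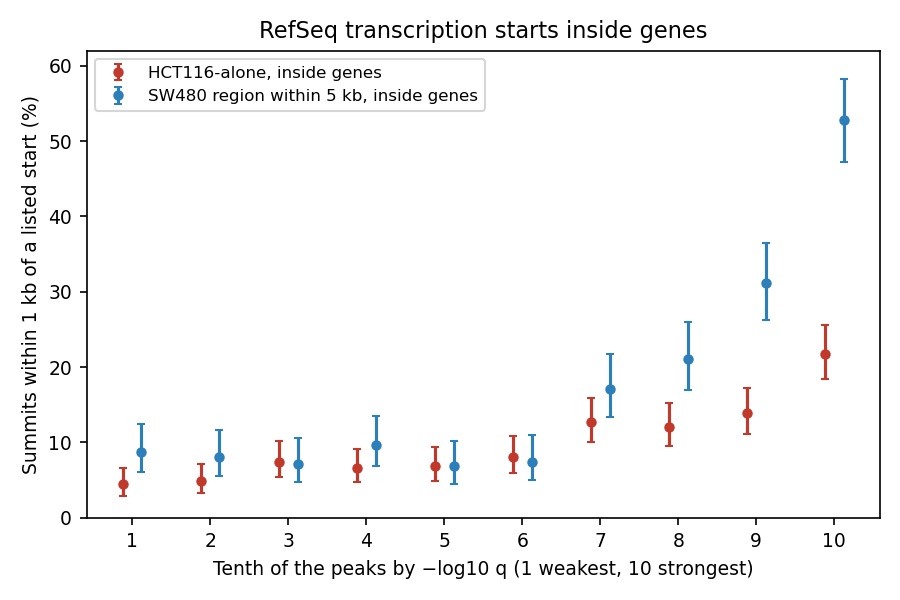
Share of summits within 1 kb of a listed RefSeq start (percent) in 10 equal groups ordered by −log10 q within each class, for HCT116-alone in-gene peaks (red) and shared in-gene peaks (blue), with 95% Wilson intervals as bars. The red points reach 21.8% in the strongest group and the blue points 52.8%, and intervals overlap in the groups numbered 1 to 7.

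A member covered a whole promoter window of 300 bases for 218 listed starts, 0.624% of all. These windows lay in 186 members, so some share a region, and the intervals below treat each window as separate. Promoters covered by any class of peak were rich in GC. The median GC content was 65.7% for windows covered by members, 66% with shared in-gene peaks, 65% with gene-end peaks and 58.7% for all listed promoters. The median number of CpG dinucleotides was 26, 26, 27 and 14 in the same order. The ETS motif CCGGAAG, bound by factors such as GABP, was in 16.5% of the windows covered by members (12.2 to 22), in 12% of those covered by shared in-gene peaks, in 25.4% of those covered by gene-end peaks and in 10.3% of all. The NRF1 motif was in 7.80% of windows covered by members, 6.27% with shared peaks, 13.6% with gene-end peaks and 5.80% of all. For YY1 the shares were 1.83%, 3.99%, 6.13% and 2.15% in the same order. For the E-box they were 7.80%, 14.5%, 13% and 7.27%. The AP-1 motif TGANTCA was in 7.80%, 6.55%, 4.87% and 7.68%, and the TEAD motif GGAATG in 11.9%, 12%, 10.8% and 14.0%.

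Other motifs were rare in these windows. The CRE motif TGACGTCA was in 2.75% of windows covered by members, 2.56% with shared in-gene peaks, 3.81% with gene-end peaks and 1.85% of all. For the TCF/LEF motif CTTTGAT the shares were 0.917%, 0.855%, 1.02% and 2.63% in the same order. For the forkhead motif TGTTTAC they were 1.38%, 1.99%, 2.19% and 3.42%, and for the HNF4 motif CAAAGTCCA 0.917%, 0.285%, 0.160% and 0.386%. The ZNF143 motif was in 3 of the 218, or 1.38% (0.469 to 3.97), with 0.570% and 0.961% in windows of shared and gene-end peaks, and the CTCF motif in 0 of 218, with an upper Wilson bound of 1.73%. The 3 include the ZNF749 and AIRIM windows printed above, and the ZNF143 motif was added after those were seen. All motifs were searched on both strands, matches of different motifs may overlap, and a match describes the letters of the window and is not a measured site. Sequence at the other members was not used here.

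Members were spread over many genes, and a few genes held long series of them. Inside protein-coding genes lay 84.1% of members, and a further 15.3% lay inside long non-coding RNA genes alone. Of 19876 protein-coding genes, 2556 held at least 1 member, or 12.9%. A single member was held by 1787 of these hosts, 2 to 4 by 667, 5 to 9 by 73, and 10 or more by 29. Those 29 genes held 639 members, 12.3% of all. The share of hosts was 6% among genes under 20 kb, 14.1% at 20 to 50 kb, 17.7% at 50 to 100 kb, 24.6% at 100 to 200 kb, 27.3% at 200 to 500 kb and 24.5% at 500 kb or more. Longer genes offer more sequence, and members per 100 kb of gene fell with length. In the same order of length classes they were 0.880, 0.609, 0.396, 0.357, 0.282 and 0.0877.

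**Figure D3:**
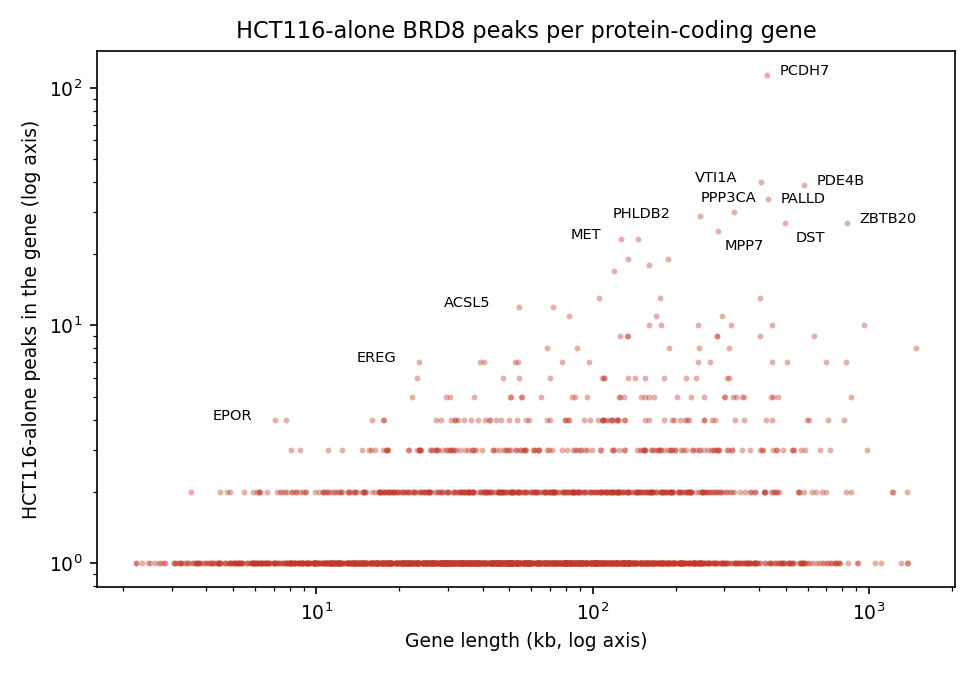
Number of HCT116-alone peaks in each protein-coding host gene against gene length in kb, both on log axes, with 1 point per gene. PCDH7, with 113 peaks, lies above all other genes, and the next, VTI1A, has 40.

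PCDH7, which encodes a protocadherin of the cell surface, held 113 members, more than any other gene. It spans 426 kb at chr4:30720369-31146800, and all 113 HCT116 summits in it were members, with no SW480 summit inside and no peak of either line at its ends. The folds of these members ran from 2.52 to 6.53 with a median of 3.58, beside 3.37 for all members. Successive summits were a median of 1.74 kb apart, and the regions covered 15.9% of the gene. The local background was at its lowest level for 74 of the 113. From 30742025 to 30883001, 71 members followed each other at steps of at most 10 kb, the longest such run of all, and a run of 19 lay further downstream. On the 5′ side of the gene's midpoint were 82 of the 113.

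VTI1A, a SNARE protein of vesicle transport, held 40 members and had a peak at its 5′ end with a fold of 4.02. All but 1 of the 40 lay on the 5′ side of the midpoint, and their folds ran from 2.30 to 7.80. PDE4B, a phosphodiesterase that breaks down cyclic AMP, held 39 members, none of them on the 5′ side of the midpoint. They filled a stretch of 113 kb, 19.5% of the gene, and 2 of them were at a listed start. PALLD, an actin-bundling protein, held 34 members, all on the 5′ side. No peak of either line lay at the ends of PDE4B or PALLD.

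PPP3CA, the catalytic subunit of calcineurin, held 30 members with folds from 2.52 to 4.85, of which 1 lay 145 kb from the nearest of the other 29. PHLDB2, which anchors microtubules at the cell cortex, held 29 members and also 15 shared in-gene peaks, with 11 SW480 summits inside. Only 1 of its members lay on the 5′ side of the midpoint. DST, a cytolinker of hemidesmosomes, held 27, and ZBTB20, a transcriptional repressor, also held 27. ZBTB20 was the 1 gene of these 10 with an SW480 peak at a gene end, with a fold of 2.65, beside an HCT116 peak of 4.47. MPP7, a scaffold protein of cell polarity, held 25 members and had no gene-end peak. MET, the hepatocyte growth factor receptor, held 23 members in 126 kb, with folds from 2.48 to 6.53, and had an HCT116 peak of 4.37 at its 5′ end.

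**Figure D4:**
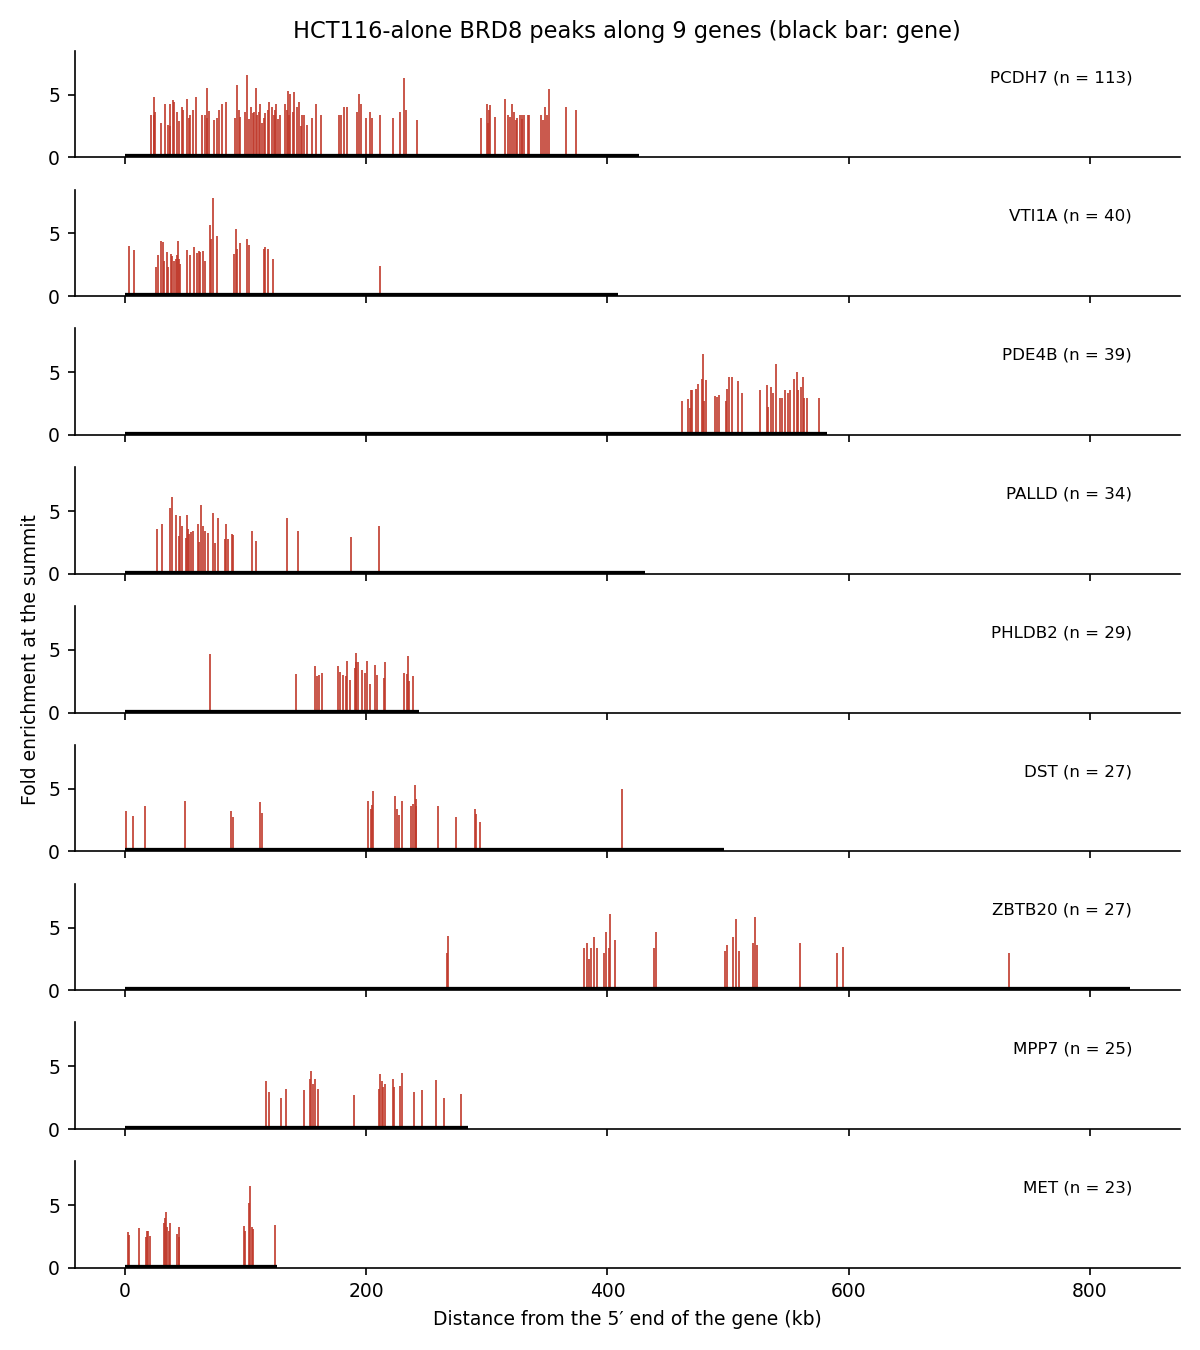
Summits of HCT116-alone peaks in 9 of the 10 genes with most members (PPP3CA has no listed strand), drawn as distance from the 5′ end of the gene in kb, with the height of each line giving the fold enrichment and the black bar the gene. Members of PALLD and all but 1 of VTI1A sit on the 5′ side of the midpoint, and those of PDE4B sit in the 3′ part.

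Counted per length, short genes led. EPOR, the erythropoietin receptor, held 4 members in 7.11 kb, or 56.3 per 100 kb. C1QTNF8 had 37.1 per 100 kb, FHL3, a LIM domain protein, had 34.3, and EREG, which encodes the EGF receptor ligand epiregulin, had 29.7. EPN3, an endocytic adaptor, had 27.2, PCDH7 had 26.5, and CPOX, an enzyme of heme synthesis, had 25.9. BCL3, a regulator of NF-kB, had 24.3. EREG held 7 members with folds up to 4.21, and an HCT116 peak of 5.27 lay at its 5′ end.

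Long non-coding RNA genes showed the same kind of series. Of 555 such genes with a member, 13 held at least 10 and 6 held at least 20. MIR100HG, a host gene of microRNAs on chromosome 11, held 36 members with folds up to 5.69. LOC105369844 held 34, and LOC107986178 held 30. ERRFI1-DT, the transcript divergent from the EGF receptor inhibitor ERRFI1, held 33 members in 101 kb, with a median fold of 3.61 and no SW480 summit. The 28 members of LOC124900807 were also members of PALLD, within which it lies. After that of PCDH7, the longest runs were 28 members in PALLD, 27 in VTI1A, and 22 each in PPP3CA and MIR100HG.

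A member had another member within 10 kb in 49.2% of cases (47.9 to 50.6), against 56.3% for shared in-gene peaks and 50.2% for SW480-alone in-gene peaks, each counted within its own class. Runs of 5 or more held 16.8% of members. Without the 29 protein-coding genes of 10 or more members, 43.0% had another within 10 kb. Near neighbours were thus not rarer in the other classes.

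Away from listed starts, members lay toward the 5′ end of their gene. Shared in-gene peaks are given beside them, but the selection bears on that contrast, because an in-gene peak near a gene end with an SW480 peak counts as shared. This was measured for 2599 members in protein-coding genes of at least 20 kb with a listed strand and no other host. The first 10% of the gene held 21.4% of members (19.9 to 23.1) and 45.8% of 1332 shared in-gene peaks (43.1 to 48.5). The 5′ side of the midpoint held 62.3% of members and 79.0% of shared in-gene peaks. The last 10% held 6.66% of members and 4.35% of shared in-gene peaks. Leaving out the 11 genes with most members gave 63.4% on the 5′ side for members. The median distance to the nearest gene end was 7307 bp for members and 2930.5 bp for shared in-gene peaks, a difference that the same selection favours.

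Host genes carried an HCT116 gene-end peak more often than other genes. Of 2556 hosts, 59.7% had one (57.8 to 61.6), against 44% of all protein-coding genes. Within length classes, the share was 67.0% of hosts and 37.5% of other genes under 20 kb, 63.0% and 50.1% at 20 to 50 kb, and 62.5% and 47.7% at 50 to 100 kb. It was 52.8% of hosts and 42.9% of other genes at 100 to 200 kb, 49.7% and 32.3% at 200 to 500 kb, and 43.4% and 12% at 500 kb or more. An SW480 gene-end peak was present in 17.3% of hosts and in 22% of all protein-coding genes. Under 20 kb, the SW480 share was 8.94% of hosts and 19.1% of other genes. It was 19.0% and 29.2% at 20 to 50 kb, and 20.5% and 27.8% at 50 to 100 kb. At 100 to 200 kb it was 19.9% and 23.7%. The order turned in longer genes, with 17.5% and 16.6% at 200 to 500 kb, and 21.1% and 5.13% at 500 kb or more. The selection itself lowers the SW480 share of hosts, because a member cannot lie within 5 kb of an SW480 region.

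Members in genes of functional lists were counted beside the number that the length classes of the listed genes would give. Length alone entered that number, and the lists also differed in HCT116 gene-end peaks. These were present in 70% of junction and polarity genes, 65.5% of Hippo and AP-1 genes and 38.5% of receptor kinases. Shares were 96.4% for replication and mitosis genes and 0% for neuronal genes, against 44% of all protein-coding genes. Their part in the counts was not tested. Epithelial junction and polarity genes held members in 15 of 30, against 5.08 from length. Receptor tyrosine kinases were hosts in 11 of 26, against 4.71, and integrins, laminins and their linkers in 9 of 23, against 4.48. The Hippo pathway and AP-1 list had 10 of 29, against 4.48, p53 targets 8 of 28, against 3.26, and chromatin regulators 16 of 40, against 8.87. TGF-beta and BMP signalling had 8 of 26, against 5.03, gut epithelial transcription factors 6 of 30, against 4.40, and replication and mitosis 5 of 28, against 3.49. The Wnt pathway had 7 of 32, against 6.65. Neuronal synapse and adhesion genes had 4 of 36, against 9.02, common fragile site genes 4 of 25, against 6.13, and cytosolic ribosomal proteins 0 of 32, against 2.08. All of these counts stand beside 12.9% of all protein-coding genes, and none was tested. At a −log10 q of at least 5 in both lists most of these counts fell, and unevenly. The Wnt, neuronal and ribosomal protein counts stayed the same. That cut also removes weak SW480 regions, so a gene can become a host only there. Junction and polarity genes had 10 hosts, receptor kinases 8, Hippo and AP-1 genes 8, and Wnt genes 7. Chromatin regulators had 7, integrins and laminins 5, TGF-beta and BMP 5, and neuronal genes 4. Fragile site genes and p53 targets had 2 each, gut factors 1, and replication and mitosis 0. Numbers from length were not recomputed there.

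Junction and polarity hosts after MPP7 were PARD6B, a polarity adaptor, with 5 members, and TJP3, a tight junction scaffold, with 4. Among receptor kinases after MET, EPHA2, an ephrin receptor, held 4 and EGFR held 3, with folds up to 4.38 and 5.24. After DST, the integrin subunit gene ITGA3 held 4, and PLEC, which encodes the cytolinker plectin, held 1 with a fold of 4.61.

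In the Hippo and AP-1 list, ATF3, a stress-induced transcription factor, held 5 members, while the kinase STK3 and the coactivator WWTR1 held 4 each. Of the Wnt genes, TNIK, a kinase that acts with TCF factors, held 9. TCF7L2, itself such a factor, held 6, and RNF43, which removes Wnt receptors from the surface, held 5 beside 7 shared in-gene peaks. TGFBR2, a TGF-beta receptor, held 8 with folds up to 4.42, and the signal transducers SMAD3 and SMAD1 held 5 and 1. Of the chromatin regulators, the demethylases KDM2B and KDM5B held 3 and 2, and EPC2, a member of the family of TIP60 complex subunits, held 1 with a fold of 4.21.

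Other listed hosts held few members. Of the p53 targets, TP53I3 held 2, and TNFRSF10B, a death receptor, and PLK2, a kinase, held 1 each. RUNX1 held 3, and CDX2, a gut transcription factor, held 1 with a fold of 3.39. BUB1 and CENPE, which act at kinetochores, and ORC2, of the replication origin complex, held 1 each. NAALADL2, CSMD3 and GPHN, in common fragile sites, held 2 each. Of the 4 neuronal hosts, PCDH7 held 113 members, CACNA1A held 5, and the glutamate receptor gene GRIN2B held 7 with folds up to 7.22. No gene of the neuronal list had a gene-end peak in HCT116 or SW480, and all 32 ribosomal protein genes had one in HCT116.

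Members were unevenly spread over the chromosomes. Chromosome 19 had 9.11 members per Mb of gene interior, which is 3.05 times the median chromosome, against 4.05 for shared in-gene peaks and 0.565 for SW480-alone in-gene peaks. Chromosome 17 had 6.58 members, 4.85 shared and 1.65 SW480-alone peaks per Mb. Chromosome 4 had 5.46 members per Mb, beside 1.29 shared and 0.374 SW480-alone peaks, and thus 4.22 members for each shared peak, against 1.64 over all chromosomes. Chromosome 10 had 4.72 members, 2.15 shared and 0.614 SW480-alone peaks per Mb. Chromosomes 7 and 12 had 2.93 and 4.87 members per Mb beside 4.75 and 5.19 SW480-alone peaks. The X chromosome was sparse in all classes, with 0.571 members, 0.638 shared and 0.504 SW480-alone peaks per Mb.

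The local background moved with chromosome as well. Its median at members was 7.46 fragments on chromosome 17, 5.74 on chromosome 19, 5.74 on chromosome 10, 4.02 on chromosome 4 and 3.75 on the X chromosome, against 5.16 over all. Its part in the densities was not tested. In windows of 10 Mb, the most members, 128, lay between 30 and 40 Mb of chromosome 4, where PCDH7 held 113. The next window, 110 to 120 Mb of chromosome 10, held 95, of which VTI1A held 40. On chromosome 19 no gene dominated in this way: its window from 0 to 10 Mb held 81 members, and the leading gene, NFIC, held 6.

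**Figure D5:**
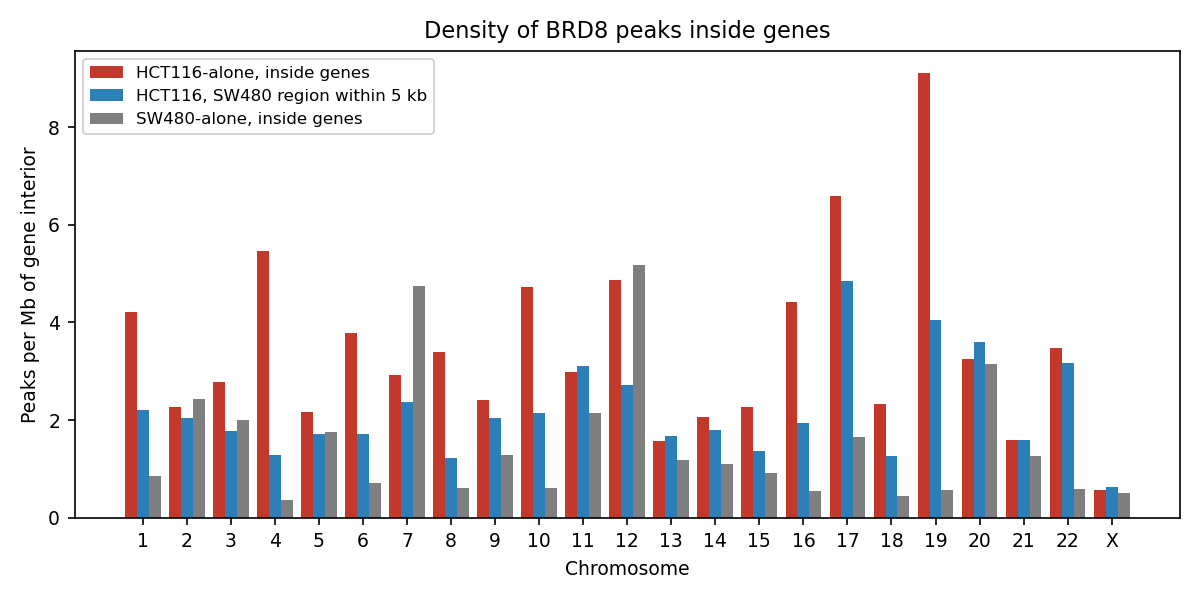
Peaks per Mb of gene interior (sequence between gene ends and more than 1 kb from each of them) on each chromosome, for HCT116-alone (red), shared (blue) and SW480-alone in-gene peaks (grey). Chromosome 19 has the highest red bar, at 9.11, and chromosomes 7 and 12 have the tallest grey bars, at 4.75 and 5.19.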

How the data were processed

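The authors used Trimmomatic 0.33, Bowtie2 2.4.1, MACS2 and deepTools with GRCh38, per the submitters' processing notes. How reads were filtered is not given in the sources used. Each deposited list holds the peaks of 1 ChIP library, and all pass a q of 0.05. The deposited fold enrichment is a ratio of ChIP signal to local background at the summit. Each region also has a deposited −log10 p-value, a deposited −log10 q-value, a deposited score for display, and an offset that places the summit. Fold and q depend on library depth and input.

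The lists give no read totals. Summit pileup and local background were solved from fold and p for 22302 of 22303 HCT116 and 12873 of 12874 SW480 regions, with a relative tolerance of 0.0001 on p. This step was tested on simulated data. Gene ends and types were read from RefSeq (GRCh38.p14). Strand, listed starts (34961 of 27195 genes) and sequences came from a RefSeq promoter table, which gave a strand for 79.2% of protein-coding genes. No genome sequence was used, so exons, introns and sequence at summits were not analysed here, and the planned motif search was moved to the promoter windows. The ZNF143 and YY1 motifs and the rule for printing promoters were chosen after seeing the data, as were the alternatives without listed starts and without the leading genes.

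The members, gene lists (415 genes in 14 lists) and naming rule were chosen with earlier results of these data known. Named were the 10 members of highest fold and of highest −log10 q, the 5 widest, and the 5 long non-coding RNA genes of highest fold. The 10 protein-coding genes with most members and the 10 with most per 100 kb (at least 3 members) followed, then the 5 longest runs and the 3 leading genes of each list. The result of 1 list and a few genes that the rule named are not reported here. ERRFI1-DT and the other long non-coding RNA genes named for counts, and NFIC, were singled out after their values were seen. Shares have 95% Wilson intervals, which cover counting error only. No tests were made. Python 3.11.15, pandas 2.3.3, NumPy 2.4.6 and SciPy 1.17.1 were used.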

Additional observations from a re-analysis of the deposited data

How the results depend on the processing

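Of 97 values recomputed under 15 alternatives, 50 stayed within their interval or within 1.5 times the count and 47 moved. The values have no direction of their own. Hosts had an HCT116 gene-end peak more often than all protein-coding genes under each alternative. The shares were 59.7% against 44% at the main settings and lay closer together in the stricter lists below. Chromosome 19 had the most members per Mb under each alternative. A −log10 q of at least 2 in both lists made members 63.6% of in-gene peaks, with a median fold of 3.41. Such a cut also removes weak SW480 regions, so some shared peaks become members. Against the full SW480 list, 1796 members and 1365 shared in-gene peaks had a −log10 q of at least 5. At a −log10 q of at least 5 in both lists there were 2242 members (70.9%, median fold 4.25) in 1422 hosts. Of these hosts 43.5% had an HCT116 gene-end peak, against 36.6% of all protein-coding genes. There, 33.2% of members had another within 10 kb, the chromosome ratio (highest over median) was 3.72, and 69 listed genes were hosts in place of 120. With equal numbers of peaks, the HCT116 list being shortened to the strongest, there were 2012 members (57.0%, median fold 4.16) in 1216 hosts. Of these hosts 44.6% had a gene-end peak, against 37.4% of all genes, 35.5% of members had another within 10 kb, the ratio was 4.10, and 66 listed genes were hosts.

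Changing the distance to SW480 regions moved the share of members to 86.1% with no overlap of 1 bp, 77.4% at 1 kb (median fold 3.36) and 49.6% at 20 kb. The share of hosts with a gene-end peak was then 66.5%, 65.1% and 56.2%. With no overlap of 1 bp, 50.8% had another within 10 kb and the chromosome ratio was 2.68, as it was at 1 kb. Gene-end limits of 500 bp, 2 kb and 5 kb gave 60.4%, 66.2% and 73.8% members, and 66.5%, 57.5% and 56.5% of hosts with a gene-end peak. At 2 kb, 52.0% had another within 10 kb and the ratio was 2.69. At 5 kb, 3078 members in 1356 hosts remained by count, and 53.2% had another within 10 kb. Protein-coding genes alone gave 59.96% members. Run distances of 5 and 50 kb gave 43.7% and 64.6%. Leaving out summits at listed starts gave 64.0% members and 61.6% of hosts with a gene-end peak. Leaving out genes with 10 or more members gave 59.4% members, a median fold of 3.36, and 43.0% with another within 10 kb. The cause was not tested, except that stricter lists hold fewer peaks. Of 56 counts for single lists under other settings, 40 stayed within 1.5 times and 16 moved.

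No paired analysis was possible because each line has 1 ChIP library and no result comes from a test. Read depth is not in the lists, and a weak SW480 peak below the q threshold makes a shared site count as HCT116-alone.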

Other observations

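The clustered protocadherin genes on chromosome 5 overlap each other, so 2 members counted in each of 15 protocadherin alpha genes were the same 2 regions, with folds of 4.57 and 2.80. A single microRNA hairpin of the RefSeq table lay inside a member: MIR3917, within STMN1, a microtubule-destabilising protein, where the fold was 6.0. NFE2L2, the transcription factor of the oxidative stress response, held the strongest member of chromosome 2, with a fold of 7.74, 12524 bp from the end of the gene. SH3RF1, a ubiquitin ligase scaffold, held that of chromosome 4 with 7.80, and NTSR1, the neurotensin receptor, that of chromosome 20 with 6.40. VCAN, a matrix proteoglycan, held a member with a fold of 9.41, 2109 bp from its end. These genes were chosen after their values were seen.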
